A study of Mus musculus with 12 samples.

Results

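Collagens are the proteins of the extracellular matrix that wind as trimers, and the Col genes encode their alpha chains. The genes described here were chosen by symbol, namely Col followed by a type number, an a and a chain number, in the annotation of an Illumina mouse bead array. The rule found 41 genes among the 19057 genes that the array named, with 91 probes between them. They were measured in C57BL/6J mouse embryonic fibroblasts (MEFs), connective tissue cells grown from embryos, on 12 arrays with 3 in each of 4 groups. The groups were Ulk1/2-/- cells (double knockout, DKO) given mouse IFNβ at 2500 IU/ml for 6 h, DKO cells left untreated, Ulk1/2+/+ cells (wild type, WT) given the same IFNβ, and WT cells left untreated. Ulk1 and Ulk2 encode related kinases that start autophagy, and IFNβ is a type I interferon released on viral infection. The title of the study asks about ULK1 in type I interferon signalling, and the collagens are a readout beside that question. The labels state neither how many embryos or lines gave the cells nor whether the replicates of a group were grown apart. The p-values below therefore rest on the spread of these arrays alone, which may be technical.

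Fibrillar collagens such as types I, III and V assemble into the cross-striated fibrils that give connective tissue its strength, and fibroblasts are their main source. Type IV collagen instead forms the sheet-like network of the basement membrane, joined there by laminins, nidogens and the proteoglycans perlecan and agrin, and types XV and XVIII are proteoglycan collagens of basement membrane zones. Each chain is hydroxylated, folded and trimerised in the endoplasmic reticulum before it is secreted. Col4a1 and Col4a2 encode the chains of the most widespread type IV trimer, and the pair is known to be transcribed in opposite directions from 1 shared promoter region. Because these genes turned out to carry the largest genotype differences, the promoter windows of the pair are shown first. RefSeq places the Col4a1 window on the minus strand at chr8:11312777-11313076 and the Col4a2 window on the plus strand at chr8:11312555-11312854 of GRCm38.p6. Each runs from 250 bases before to 50 after an annotated start site, and each is written 5′ to 3′ on its own strand. Capitals mark the 78 bases that both windows share, read from opposite strands.
Col4a1: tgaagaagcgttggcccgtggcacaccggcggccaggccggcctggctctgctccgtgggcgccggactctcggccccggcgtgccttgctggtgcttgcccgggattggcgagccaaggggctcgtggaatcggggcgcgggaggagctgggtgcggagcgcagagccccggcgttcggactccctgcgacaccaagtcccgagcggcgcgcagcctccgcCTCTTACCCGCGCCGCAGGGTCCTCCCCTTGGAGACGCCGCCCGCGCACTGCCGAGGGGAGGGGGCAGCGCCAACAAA
Col4a2: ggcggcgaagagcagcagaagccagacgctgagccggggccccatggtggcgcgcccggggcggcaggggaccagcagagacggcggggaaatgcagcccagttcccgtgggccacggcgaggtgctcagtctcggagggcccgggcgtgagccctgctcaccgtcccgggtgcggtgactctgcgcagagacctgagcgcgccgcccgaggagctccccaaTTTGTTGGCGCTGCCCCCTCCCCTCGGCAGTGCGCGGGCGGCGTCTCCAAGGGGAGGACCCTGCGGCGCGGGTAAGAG
The start sites lie 21 bases apart, Col4a1 at 11312826 and Col4a2 at 11312805. Given their strands, the annotated 5′ ends of the genes overlap, and the shared stretch includes transcribed bases of both. RefSeq windows were found for 33 of the 41 collagen genes. Col4a5 and Col4a6 are the pair on the X chromosome that is likewise arranged head to head. Their start sites lie 1343 bases apart without overlap of the 5′ ends, and their windows share 0 bases.

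A gene was tested if 1 or more of its probes rose above the negative controls (detection p under 0.01) on 3 or more arrays, and the brightest such probe stood for it. This left 15 collagens among 8898 tested genes. Of 11 fibrillar collagens 6 were tested (Col1a1, Col1a2, Col3a1, Col5a1, Col5a2 and Col5a3). Of 8 basement membrane collagens (types IV, XV and XVIII) 4 were tested (Col4a1, Col4a2, Col4a5 and Col18a1). Of the 22 other collagens 5 were tested (Col6a1, Col6a2, Col7a1, Col8a1 and Col16a1). The probe used for each of the 15 was detected on all 12 arrays, so none of them passed the filter through 1 group alone.

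The other 26 collagens were not tested, and 20 of them were detected on 0 arrays by any probe. In the fibrillar class these were the cartilage collagens Col2a1 and Col11a1, with Col24a1. In the basement membrane class they were Col4a3, Col4a4, Col4a6 and Col15a1. Among the others they were Col6a4, Col6a5, Col6a6, Col9a2, Col9a3, Col10a1, Col13a1, Col14a1, Col17a1, Col19a1, Col22a1, Col23a1 and Col28a1. The remaining 6 were detected on 1 or 2 arrays, with Col11a2 and Col9a1 on 2 and Col8a2, Col25a1, Col26a1 and Col27a1 on 1. The 63 probes of the 26 genes gave 756 readings, of which 10 were detected (1.32%), and a detection p under 0.01 is reached by 1 in 100 negative control probes by its definition. Col6a3, Col12a1 and Col20a1 were not analysed here.

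The label check came first. Ulk1 and Ulk2 were detected on 0 of 6 DKO arrays and on 6 of 6 WT arrays. In untreated cells Ulk1 was at least 3.44-fold lower and Ulk2 at least 2.78-fold lower in DKO cells, bounds set by the dimmest detected signal. The genotypes also differed in sex-linked RNA: in untreated DKO cells Xist, the RNA that silences an X chromosome in female cells, was higher by at least 5.25-fold, and the Y-linked Eif2s3y was lower by at least 9.76-fold. Genotype therefore cannot be told apart from sex or from the origin of the cells, and every genotype difference below carries that limit. Between 13732 and 15240 probes were detected per array. The arrays fell into 2 sets by median intensity, 1 from 86.53 to 87.92 and the other from 97.55 to 99.67, and each set held arrays of all 4 groups.

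Markers of cell types were compared next, because collagens differ widely between cell types. Of 14 fibroblast markers on the array 11 were tested. In untreated DKO cells 4 of them were higher, beside 15.9% of all tested genes, and 4 lower, beside 18%. Ly6c1, S100a4, Pdgfrb and Twist2 were the higher ones and Pdgfra, Dcn, Thy1 and Twist1 the lower, with Twist1 and Twist2 named after their values were seen. Pdgfra, for a receptor that marks many fibroblasts, was detected on 0 of 6 DKO arrays, and in untreated cells its level there was lower by at least 13-fold. The proteoglycan gene Dcn was likewise detected on 0 of 6 DKO arrays, and was lower by at least 2.70-fold untreated. Vim, for vimentin, differed by 0.05 on the log2 scale (adjusted p = 0.77). The mean log2 level of the 11 genes ran from 7.93 to 8.07 in untreated DKO cells and from 8.01 to 8.21 in untreated WT cells. After IFNβ it ran from 8.13 to 8.26 in DKO cells and from 8.39 to 8.68 in WT cells.

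For untreated cells, the shares of all tested genes given for the fibroblast markers apply to the counts of the next lists too. Of 8 endothelial markers 1, Esam, was tested, and Pecam1, Cdh5, Tek, Emcn, Tie1 and Vwf were detected on 0 arrays. Esam was detected on 0 of 3 untreated WT arrays and was at least 1.02-fold higher in untreated DKO cells (limma adjusted p = 0.0026), where its level ran from 4.74 to 5.08 against 4.27 to 4.42 in untreated WT cells. After IFNβ it differed by 0.03 between genotypes and did not pass (limma adjusted p = 0.90). Of 8 epithelial markers 3 were tested and 2 were higher in DKO cells, while Epcam, Krt5 and Krt14 were detected on 0 arrays. The higher ones were the keratins Krt18 and Krt19, with Krt19 at least 7.90-fold higher untreated. The mean log2 level of the 3 tested epithelial genes ran from 5.77 to 6.01 in untreated DKO cells and from 4.31 to 4.59 in untreated WT cells. Krt18 and Krt19 were detected on DKO arrays alone, so they passed the filter only through the cells where they were higher. Neither that count nor that mean level is therefore separate evidence of a difference. Of 8 smooth muscle markers 4 were tested and 3 were higher in DKO cells (Acta2, Tagln and Lmod1). Acta2 differed by 0.27 in untreated cells (limma adjusted p = 0.049), and Lmod1 was detected on DKO arrays alone. The mean level of the 4 was 9.40 to 9.72 in untreated DKO cells and 9.04 to 9.20 in untreated WT cells. Myh11, Cnn1 and Des were detected on 0 arrays. Of 10 cartilage markers 2 were tested, Sox9 and Acan, and both were lower in untreated DKO cells, Sox9 by a log2 difference of -1.12. Acan was detected on WT arrays alone, so it passed the filter only through the cells where it was higher. Of 7 leukocyte markers 1, Cd3e, was tested, with a log2 difference of 1.28 in untreated cells, and Ptprc, Adgre1, Csf1r and Itgam were detected on 0 arrays. What part these differences have in the collagen values was not tested, and fewer cells of a type cannot be told apart from less RNA per cell.

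Between genotypes the 3 collagen classes differed in how many members passed the test and in which direction. In untreated cells 6 of the 15 tested collagens were higher in DKO cells, where 15.9% of all tested genes were, and 4 were lower, where 18% were (limma, Benjamini-Hochberg adjusted p under 0.05 over all 8898 genes). After IFNβ 6 were higher, against a background of 15.3%, and 5 were lower, against 16.5%. All 4 tested basement membrane collagens were higher in DKO cells, untreated and after IFNβ, with a median log2 difference of 3.25 untreated and 3.27 after IFNβ. None of the 6 tested fibrillar collagens was higher; 2 were lower untreated and 3 after IFNβ, with medians of -0.21 and -0.30. Of the 5 other collagens 2 were higher and 2 lower under both treatments, with medians of -0.40 untreated and -0.47 after IFNβ. The median over all tested genes was -0.03 untreated and -0.02 after IFNβ. At a fold of at least 2 as well, 5 collagens were higher and 1 lower in untreated DKO cells, beside 3.71% and 2.67% of all genes. After IFNβ 5 were again higher and 1 lower, beside 3.47% and 2.94%.

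**Figure D1:**
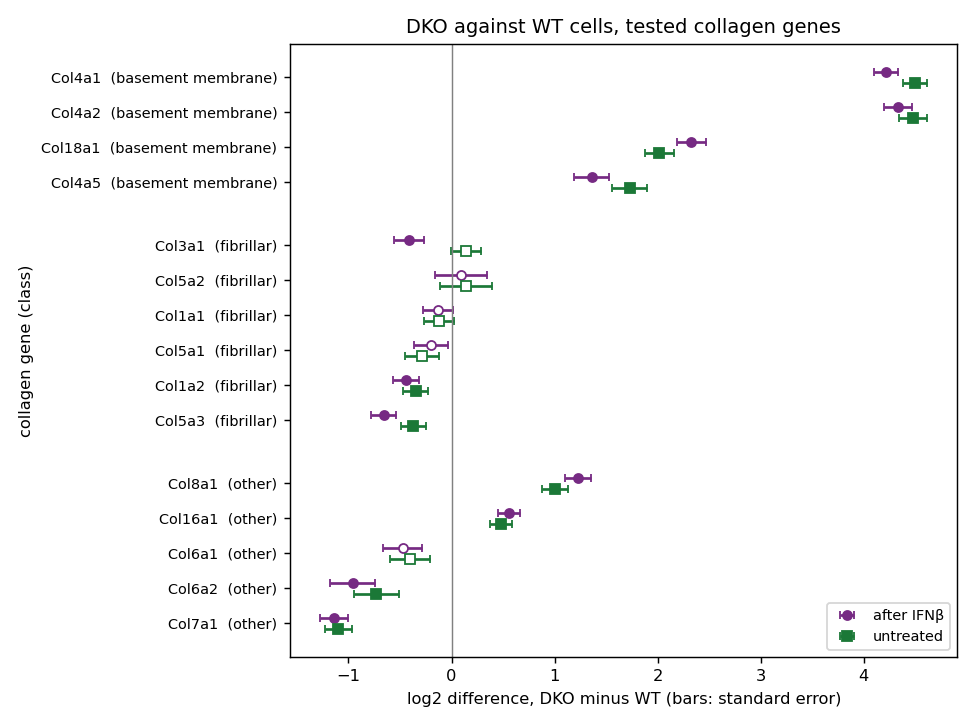
Difference between DKO and WT cells for each of the 15 tested collagen genes, grouped by class, as DKO minus WT on the log2 scale; circles are cells after IFNβ, squares untreated cells, bars the standard error, and filled symbols passed at an adjusted p under 0.05. The 4 basement membrane collagens lie at 1.36 or more, while the 6 fibrillar collagens lie between -0.66 and 0.14.

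The chain genes of the widespread type IV trimer gave the largest differences among the collagens. Col4a1 had 11.91, 11.74 and 11.72 in the 3 untreated DKO arrays, against 7.29, 7.28 and 7.30 in the untreated WT arrays, all as log2 normalized intensity. With IFNβ its values were 11.76, 11.60 and 11.59 in DKO cells against 7.57, 7.55 and 7.18 in WT cells. Every DKO array stood more than 4 log2 units above every WT array of the same treatment. The log2 difference was 4.50 ± 0.12 (SE, n = 3 arrays a group) untreated, 22.6-fold (limma adjusted p = 4.7e-12), and 4.21 ± 0.12 after IFNβ, 18.6-fold (limma adjusted p = 6.8e-12). It ranked 2 from the top of 8898 genes untreated and 4 after IFNβ.

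Col4a2, the head-to-head partner of Col4a1, followed it closely. It had 11.65, 11.40 and 11.45 in untreated DKO cells against 7.25, 7.01 and 6.80 in untreated WT cells. The arrays after IFNβ gave 11.34, 11.14 and 11.40 in DKO cells against 7.16, 6.91 and 6.82 in WT cells. The groups did not overlap, and the differences were 4.48 ± 0.13 untreated, 22.3-fold (limma adjusted p = 2.2e-11), and 4.33 ± 0.13 after IFNβ, 20.1-fold (limma adjusted p = 2.6e-11). Its rank from the top was 3 under both treatments. Both differences kept their direction within each set of arrays of like background, where 1 genotype had 1 array. Untreated, Col4a1 differed by 4.63 in the lower and 4.43 in the higher set, and Col4a2 by 4.52 and 4.62. Each of these genes had 1 probe that passed the filter, so no second probe checks them.

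Col4a5 encodes a chain of the type IV trimers found in glomerular and some other basement membranes. It had 7.89, 7.89 and 7.58 in untreated DKO cells against 6.20, 5.92 and 6.06 in untreated WT cells. After IFNβ it had 7.42, 7.69 and 7.38 in DKO cells against 6.57, 5.88 and 5.96 in WT cells. The groups did not overlap, though WT replicate 1 after IFNβ came nearest to the DKO values. The differences were 1.73 ± 0.17 untreated, 3.31-fold (limma adjusted p = 3.0e-06), and 1.36 ± 0.17 after IFNβ, 2.57-fold (limma adjusted p = 3.1e-05). A second probe gave 1.49 and 1.19. Col4a5 lies on the X chromosome, where 86 of 271 tested genes (31.7%) were higher in untreated DKO cells and 83 (30.6%) after IFNβ, against 15.9% and 15.3% of all tested genes; the part of X dosage in its value was not tested.

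Col18a1 encodes the core of the heparan sulphate proteoglycan collagen XVIII, whose end is released as endostatin. It had 10.03, 9.85 and 9.74 in untreated DKO cells against 8.05, 7.71 and 7.81 in untreated WT cells. Treated cells gave 9.80, 9.62 and 9.59 in DKO cells against 7.63, 7.10 and 7.30 in WT cells. No DKO array came within 1 log2 unit of a WT array. The differences were 2.02 ± 0.14 untreated, 4.04-fold (limma adjusted p = 1.1e-07), and 2.32 ± 0.14 after IFNβ, 5.01-fold (limma adjusted p = 2.1e-08). A second probe was detected on 6 of 6 DKO arrays and 0 of 6 WT arrays, which bounds the fold at no less than 1.53 untreated and 1.34 after IFNβ. That probe passed the filter only through the cells where it was higher, so it is not separate evidence of a difference. The remaining Col18a1 probe was detected on 1 of 12 arrays, in untreated DKO cells, and was not kept.

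**Figure D2:**
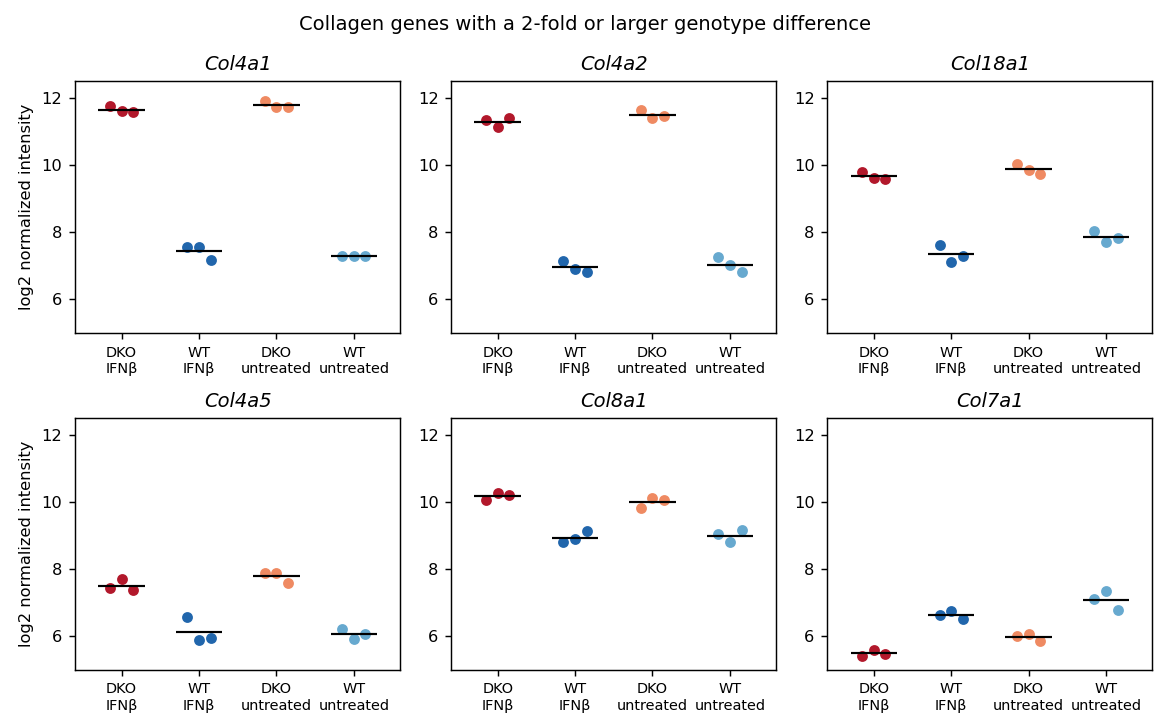
Log2 normalized intensity on each of the 12 arrays for the 6 collagen genes with a fold of at least 2 between genotypes; each point is an array, the bar is the group mean, and groups run DKO and WT after IFNβ, then DKO and WT untreated. DKO arrays lie above WT arrays in 5 panels, by most for Col4a1 (means 11.79 and 7.29 untreated), and below them in the Col7a1 panel (5.98 and 7.07).

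Among the other collagens, Col8a1 and Col16a1 were higher in DKO cells. Col8a1, which encodes a chain of the short network-forming collagen VIII of vessel walls and Descemet's membrane, had 9.82, 10.10 and 10.05 in untreated DKO cells against 9.02, 8.80 and 9.15 in untreated WT cells. In treated cells the values were 10.05, 10.26 and 10.19 in DKO cells against 8.79, 8.88 and 9.13 in WT cells. The lowest DKO array was above the highest WT array under both treatments. The differences were 1.00 ± 0.13 untreated (limma adjusted p = 3.4e-05) and 1.23 ± 0.13 after IFNβ (limma adjusted p = 5.1e-06), and a second probe gave 0.75 and 0.81. Col16a1, a fibril-associated collagen with interrupted triple helices, averaged 10.17 ± 0.16 in untreated DKO cells and 9.69 ± 0.12 in untreated WT cells (SD, n = 3). It was higher by 0.48 (limma adjusted p = 0.0038), and by 0.56 after IFNβ (limma adjusted p = 0.0014). The untreated difference did not pass within the lower background set alone (0.37, adjusted p = 0.15), nor the difference after IFNβ within the higher set alone (0.45, adjusted p = 0.072).

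Col7a1 encodes collagen VII, the anchoring fibril protein that ties the epidermal basement membrane to the dermis, and it ran opposite to the basement membrane collagens. It had 6.01, 6.06 and 5.86 in untreated DKO cells against 7.11, 7.34 and 6.78 in untreated WT cells. With IFNβ it had 5.39, 5.59 and 5.47 in DKO cells against 6.62, 6.75 and 6.50 in WT cells. The groups did not overlap, and the differences were -1.10 ± 0.13 untreated, 2.14-fold lower (limma adjusted p = 2.4e-05), and -1.14 ± 0.13 after IFNβ, 2.20-fold lower (limma adjusted p = 1.7e-05). The other Col7a1 probe was detected on 0 of 12 arrays, so no second probe checks these values or those with IFNβ below.

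Col6a1 and Col6a2 encode chains of collagen VI, which forms beaded microfilaments around cells. Col6a2 had 6.81, 6.55 and 6.14 in untreated DKO cells against 7.59, 7.13 and 6.95 in untreated WT cells, a difference of -0.73 ± 0.22 (limma adjusted p = 0.020). After IFNβ it had 6.41, 6.14 and 5.86 in DKO cells against 7.48, 7.02 and 6.79 in WT cells, a difference of -0.96 ± 0.22 (limma adjusted p = 0.0042). In both treatments the highest DKO array fell below the lowest WT array, and a second probe gave -0.94 and -1.04. The untreated call was lost without WT untreated replicate 1 (adjusted p = 0.095) or DKO untreated replicate 3 (0.097). Col6a1 did not pass (-0.40, adjusted p = 0.12 untreated; -0.47, adjusted p = 0.075 after IFNβ). Its other kept probes disagreed in untreated cells, at -0.44 and 0.36. After IFNβ they gave -0.59 and -0.45, and the first passed when adjusted over all kept probes (limma adjusted p = 0.039). After IFNβ Col6a1 also passed in some alternatives, among them median scaling (-0.60) and the mean of all kept probes (-0.51).

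The 6 fibrillar collagens, whose fibrils fibroblasts are best known for, had genotype differences between -0.66 and 0.14 on the log2 scale. Col1a1, the main chain of type I collagen, averaged 10.96 ± 0.11 in untreated DKO cells and 11.08 ± 0.23 in untreated WT cells (SD, n = 3). The difference was -0.12, with a 95% interval from -0.44 to 0.19, and after IFNβ it was -0.13, with an interval from -0.44 to 0.18. Neither passed, and both intervals held 0. Col1a2, the second chain of the same trimer, had 10.13, 9.97 and 9.93 in untreated DKO cells against 10.35, 10.25 and 10.48 in untreated WT cells. It was lower by a log2 difference of -0.35 (limma adjusted p = 0.042), and of -0.44 after IFNβ (limma adjusted p = 0.014). The untreated call was lost in 9 of 26 alternative analyses, the call after IFNβ in 4.

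Col5a3, a minor chain of the fibril-nucleating collagen V, had 5.35, 5.43 and 5.29 in untreated DKO cells against 5.55, 5.76 and 5.88 in untreated WT cells. After IFNβ it had 5.33, 5.10 and 5.21 in DKO cells against 6.07, 5.78 and 5.76 in WT cells. The groups did not overlap, but the gap in untreated cells was narrow. The differences were -0.37 ± 0.12 untreated (limma adjusted p = 0.027; 0.053 with the replicate number within genotype as a random block) and -0.66 ± 0.12 after IFNβ (limma adjusted p = 0.00078). The untreated call was lost in 10 of 26 alternatives and the call after IFNβ in 0.

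Col3a1, the homotrimeric collagen III of extensible tissues, had 8.13, 8.57 and 8.06 in untreated DKO cells against 8.23, 7.92 and 8.19 in untreated WT cells. These overlapped (difference 0.14, limma adjusted p = 0.51). With treatment it had 8.01, 8.12 and 7.95 in DKO cells against 8.50, 8.20 and 8.61 in WT cells, a difference of -0.41 ± 0.15 that passed by little (limma adjusted p = 0.049). That call was lost in 15 of 26 alternatives, and a second probe gave -0.18. Col5a1 and Col5a2, the main chains of collagen V, did not pass in either treatment. Col5a1 differed by -0.29 untreated and -0.20 after IFNβ. Col5a2 differed by 0.14 and 0.09, with 3 kept probes that did not share a sign: the other 2 gave -0.17 and 0.40 in untreated cells. After IFNβ those 2 gave -0.39 and 0.22, and the first of them passed when adjusted over all kept probes (limma adjusted p = 0.014).

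The untreated and the IFNβ-treated comparison of genotypes used separate arrays. Of the 15 collagens 14 had the same sign in both (93.3%), against 79.8% of all tested genes, and 10 passed in both. Counted by arrays, 6 collagens had every DKO array above every WT array and 4 every DKO array below, in untreated cells, where 20.7% and 25.1% of all genes did so. After IFNβ 6 were wholly above and 6 wholly below, where 20.3% and 22.8% of all genes were.

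With IFNβ, the collagens that passed the test were Col7a1 in both genotypes and Col18a1 in WT cells, shares near those of all tested genes. In DKO cells 0 of 15 were higher after IFNβ, where 6.25% of all tested genes were, and 1 was lower, where 5.16% were. In WT cells 0 were higher, where 8.08% of all genes were, and 2 were lower, where 10.7% were. Below 0 lay 13 of the 15 differences in DKO cells and 9 in WT cells, against 62.8% and 62.9% of all tested genes. The medians over the 15 were -0.20 in DKO cells and -0.06 in WT cells, and over all genes -0.07 and -0.08. The split of all genes into higher and lower moved with the scaling. With cyclic loess in place of quantiles, 597 genes were higher and 303 lower in DKO cells, against 556 and 459, and 811 higher and 587 lower in WT cells, against 719 and 949. With median scaling, 427 genes were higher and 622 lower in DKO cells, 639 and 644 in WT cells, and 958 higher and 1608 lower in DKO against WT cells after IFNβ, where quantile scaling gave 1362 and 1469.

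**Figure D3:**
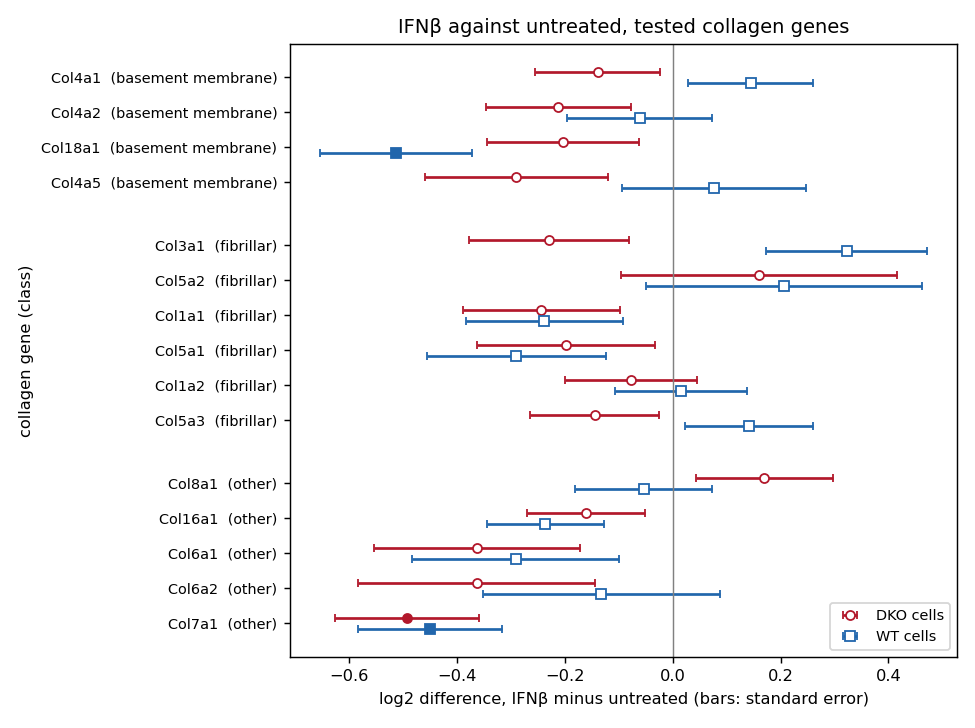
Difference between IFNβ-treated and untreated cells for each of the 15 tested collagen genes, as IFNβ minus untreated on the log2 scale; circles are DKO cells, squares WT cells, bars the standard error, and filled symbols passed at an adjusted p under 0.05. Filled symbols are Col7a1 in both genotypes and Col18a1 in WT cells, and the 30 differences lie between -0.51 and 0.32.

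Col7a1 was lower after IFNβ in both genotypes. In DKO cells it had 5.39, 5.59 and 5.47 after IFNβ against 6.01, 6.06 and 5.86 untreated, a difference of -0.49 ± 0.13 (limma adjusted p = 0.028). In WT cells it had 6.62, 6.75 and 6.50 after IFNβ against 7.11, 7.34 and 6.78 untreated, a difference of -0.45 ± 0.13 (limma adjusted p = 0.031). Treated and untreated arrays did not overlap in either genotype. Every treated array lay below every untreated one for 2 collagens in DKO cells, where 18.2% of all genes did so, and for 3 in WT cells, where 22% did so. For 0 collagens did every treated array lie above, beside 10.8% of all genes in DKO cells and 11.8% in WT cells. The DKO call was lost without background correction (-0.21, adjusted p = 0.13), with an offset of 50 (-0.30, adjusted p = 0.074) and without any 1 of DKO untreated replicates 1 and 2 and DKO IFNβ replicates 1 and 3, at an adjusted p of 0.080 to 0.10. The WT call was lost without any 1 of WT untreated replicates 1 and 2 and WT IFNβ replicates 1 and 3, at 0.075 to 0.14. The difference between the 2 responses was -0.04, with a 95% interval from -0.45 to 0.36.

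Col18a1 was lower after IFNβ in WT cells, with 7.63, 7.10 and 7.30 after IFNβ against 8.05, 7.71 and 7.81 untreated. Treated arrays lay below untreated ones, by -0.51 ± 0.14 on average (limma adjusted p = 0.021). In DKO cells it differed by -0.20 (limma adjusted p = 0.44), and the test of the difference between the genotypes gave 0.31 (limma adjusted p = 0.72), so the responses were not shown to differ. The WT call was lost without WT untreated replicate 1 (0.090), WT IFNβ replicate 2 (0.090) or WT IFNβ replicate 3 (0.062), and with cyclic loess (0.052).

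Col4a1 and Col4a2, which differed most between genotypes, did not pass with IFNβ in either one, nor did Col4a5. Col4a1 differed by -0.14 (95% interval -0.39 to 0.11) in DKO cells and by 0.15 (-0.10 to 0.39) in WT cells. Col4a2 differed by -0.21 (-0.50 to 0.08) in DKO cells and by -0.06 (-0.35 to 0.23) in WT cells. Tested as an interaction over all genes, the IFNβ response of 0 collagens differed between the genotypes in either direction (limma), beside 0.303% of all genes above and 0.742% below. At an unadjusted p under 0.05 there was 1, Col3a1, which differed by -0.23 in DKO cells and 0.32 in WT cells (difference -0.55, limma adjusted p = 0.40). With the replicate number within genotype as a random block, the change of Col3a1 in WT cells passed (0.32, adjusted p = 0.031) and the interaction did not (0.061).

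The genes that build and handle collagen were counted from lists chosen by function. Of 12 basement membrane partners 10 were tested; in untreated DKO cells 6 were higher and 1 lower, and after IFNβ 4 were higher and 1 lower, beside the shares of all genes given above. The laminin chain gene Lama5 was higher by 1.86 (limma adjusted p = 6.0e-06) untreated and 1.73 (limma adjusted p = 1.3e-05) after IFNβ. Nid2, for the linker nidogen-2, was higher by 1.45 and 1.49, and Agrn, for agrin, by 1.42 and 0.94. Lamc1 and Lamb1, chains shared by many laminins, were higher by 0.98 and 0.76 in untreated cells. After IFNβ Lamc1 was higher by 0.88, and Lamb1 did not pass (0.47, limma adjusted p = 0.17). Hspg2, for perlecan, named after its value was seen, passed neither untreated (0.15, limma adjusted p = 0.41) nor after IFNβ (0.17, limma adjusted p = 0.38). Lama2, the laminin chain of muscle and nerve, was lower by a log2 difference of -1.07 untreated and -1.50 after IFNβ. The median of the 10 was 0.68 untreated and 0.37 after IFNβ.

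Of 21 genes of collagen biosynthesis 18 were tested, and 1 was higher and 6 lower in DKO cells under both treatments, where 15.9% of all tested genes were higher and 18% lower untreated, and 15.3% and 16.5% after IFNβ. The prolyl 4-hydroxylase subunit P4ha2 was lower by a log2 difference of -1.13 (limma adjusted p = 1.4e-05) untreated and -0.95 after IFNβ, and its partner P4hb of -0.59 and -0.51. Colgalt1, which puts galactose on hydroxylysine, was lower, at -0.88 and -0.54. Creb3l1, for a transcription factor of collagen-secreting cells, was lower, at -0.56 untreated, and after IFNβ, where it was detected on 0 of 3 DKO arrays, by at least 1.44-fold. P3h3, of the prolyl 3-hydroxylase family, and the lysyl hydroxylase Plod3 were lower, at -0.49 and -0.42 in untreated cells. The higher one was Serpinh1, the collagen chaperone HSP47, at 0.30 and 0.35, named after its value was seen. The median of the 18 was -0.21 untreated and -0.26 after IFNβ. In the lower background set alone 2 were lower under each treatment. With IFNβ, 1 of these genes was higher in both genotypes (Plod3, 0.45 in DKO cells and 0.45 in WT cells), while 2 were lower in DKO cells and 3 in WT cells. Among all tested genes, 6.25% were higher and 5.16% lower in DKO cells, and 8.08% and 10.7% in WT cells. Mia3, for the receptor TANGO1 that loads procollagen for export, was lower by a log2 difference of -0.50 in DKO cells and -0.43 in WT cells, and P3h4 of -0.43 and -0.41; P4ha2 was the other one in WT cells, at -0.41. With the replicate number within genotype as a random block, 5 were lower in DKO cells and 7 in WT cells, beside 1188 and 1848 of all 8898 genes.

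Of 12 genes that process or cross-link collagen outside the cell 7 were tested, and the shares of all genes given for the biosynthesis list apply to these lists too. In untreated DKO cells 1 was higher and 2 were lower, and after IFNβ 1 was higher and 4 were lower. Bmp1, the procollagen C-proteinase, was higher in DKO cells by 0.73 (limma adjusted p = 0.00062) untreated and 0.87 (limma adjusted p = 0.00014) after IFNβ. Its enhancer Pcolce was lower by a log2 difference of -0.58 under both treatments, and the lysyl oxidase-like gene Loxl4 of -0.47 and -0.37. After IFNβ Lox and Sparc were lower as well, at -0.47 and -0.59. Of 14 fibril-associated genes 7 were tested, with 0 higher and 3 lower in untreated DKO cells. These were Dcn, the matricellular gene Thbs2 (-0.97) and periostin, Postn (-0.93). After IFNβ 2 were higher (Bgn, by 0.34, and Aspn, detected on 0 of 3 WT arrays and at least 1.08-fold higher) and 3 lower. Aspn was detected on DKO arrays alone and Dcn on WT arrays alone, so each passed the filter only through the cells where it was higher. Of 8 receptor and uptake genes 3 were tested. In untreated DKO cells 0 were higher and 1 lower, and after IFNβ 1 was higher and 1 lower. The collagen-binding integrin gene Itga11 was the lower one, at -0.85 untreated and -1.10 after IFNβ. The collagen receptor kinase gene Ddr2 was higher in DKO cells after IFNβ, by 0.31 (limma adjusted p = 0.039). Compared with untreated cells, Ddr2 was higher with IFNβ in both genotypes (0.60 in DKO cells and 0.44 in WT cells).

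**Figure D4:**
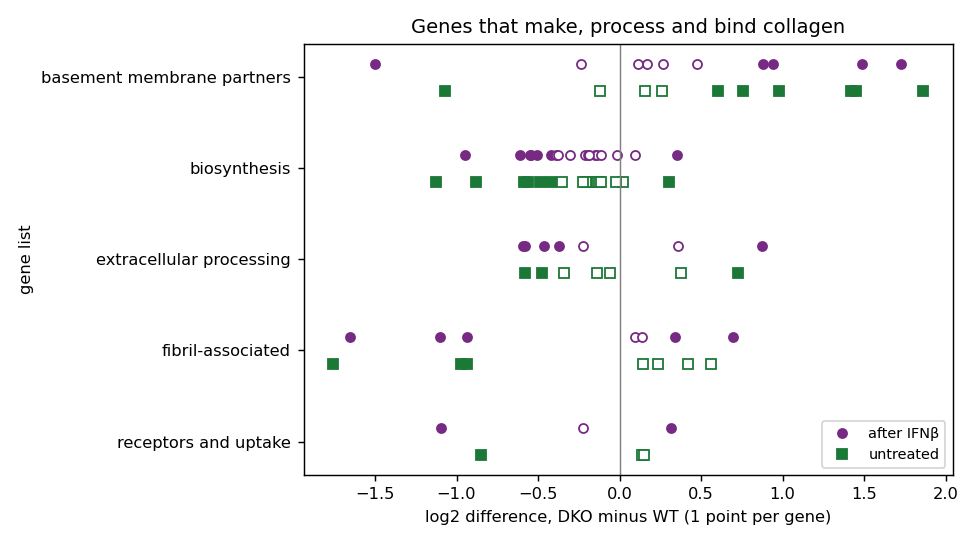
Difference between DKO and WT cells for tested genes of the 5 lists of collagen partners and processing genes, as DKO minus WT on the log2 scale; each point is a gene, circles are cells after IFNβ and squares untreated cells, and filled symbols passed at an adjusted p under 0.05. Of the filled squares in the basement membrane list 6 lie to the right of 0 and 1 to the left, and in the biosynthesis list 1 lies to the right and 6 to the left.

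The promoter windows of the tested collagens were searched on both strands for 7 short motifs, each counted on its own. RefSeq held windows for 13 of the 15 tested genes, 15 windows in all. The Sp1-type GC box, GGGCGG, was in 12 of these 15 windows and in 35.7% of 32851 mouse promoter windows. The 1 GC box of the Col4a1 window lies in the stretch shared with Col4a2, so that site is counted in both windows. The CCAAT box was in 8 and in 37.4%, and the TATA box, TATAAA, in 1 and in 13.6%. Of the motifs tied to interferon, the interferon-stimulated response element, searched as GAAA and again GAAA with 2 bases between them, was in 0 and in 3.44%, and the gamma-activated site, TTCNNNGAA, in 0 and in 8.30%. The AP-1 site, TGANTCA, was in 1 and in 7.81%, and the Smad element, GTCTAGAC, in 0 and in 0.213%. These letters are a description of the windows only. The window of Col7a1, the collagen that was lower after IFNβ in both genotypes, is shown with that of Col4a5, the X-linked member that was higher in DKO cells. They lie on the plus strand at chr9:108953336-108953635 and chrX:141475169-141475468 of GRCm38.p6, and capitals mark the GC and CCAAT letters, with CCAAT read as ATTGG on the opposite strand.
Col7a1: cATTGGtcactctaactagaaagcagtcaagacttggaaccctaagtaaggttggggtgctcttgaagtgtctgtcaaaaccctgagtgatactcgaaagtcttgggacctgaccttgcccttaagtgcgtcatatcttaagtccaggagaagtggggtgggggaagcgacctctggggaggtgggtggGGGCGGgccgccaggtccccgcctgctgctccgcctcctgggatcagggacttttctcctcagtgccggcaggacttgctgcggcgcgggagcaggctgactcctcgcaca
Col4a5: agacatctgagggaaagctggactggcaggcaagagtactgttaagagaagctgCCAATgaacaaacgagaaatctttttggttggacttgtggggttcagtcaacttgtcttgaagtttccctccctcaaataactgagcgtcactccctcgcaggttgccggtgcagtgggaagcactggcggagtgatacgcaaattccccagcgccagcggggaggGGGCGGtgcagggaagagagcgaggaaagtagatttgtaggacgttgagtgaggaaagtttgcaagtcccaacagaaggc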

How the data were processed

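RNA of 12 MEF samples was measured on an Illumina mouse bead array from 150 ng of total RNA labelled with biotin, per the labels' protocols. In the deposited non-normalized table each probe has a linear intensity on each array, from which no background was subtracted as far as the values show. Beside it stands the deposited detection p-value, which moves in steps of 1 in 936, the share of negative controls that reach the probe's brightness. A second table by the authors holds log2 values with a median of 6.53 on each array, and these follow log2 of the intensities (correlation across probes at least 0.999). The sources used here do not name its software. Values here were computed from the first table, and the second served as an alternative.

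The annotation gave 1 gene for 34885 of the 45281 probes, several for 18 and none for 10378, and only the first kind was tested. Intensities were corrected with normexp fitted from the detection p-values, given an offset of 16, quantile normalized and put on the log2 scale (limma 3.58.1, R 4.3.3, and version 1.17.8 of data.table). A dim value is compressed by the offset, so its fold is understated. A gene was represented by its brightest probe among those under the 0.01 detection threshold on 3 or more arrays. A limma model of 4 group means over 12 arrays, with 8 residual and 5.56 prior degrees of freedom, gave the 5 differences, adjusted by Benjamini-Hochberg over 8898 genes. Where a gene was detected on 0 arrays of a group, the fold is a lower bound against the dimmest detected signal. Promoter windows and strands are RefSeq's, build GRCm38.p6.

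Members, lists and tests were chosen with earlier results of these data known. Full values are given for collagens that passed with a log2 difference of at least 1 between genotypes or that passed with IFNβ. Arrays of Col1a2, Col3a1, Col5a3 and Col6a2, which passed between genotypes with smaller differences, are given beyond that rule, chosen after their values were seen. From each list up to 6 called genes between genotypes and up to 4 with IFNβ are named. After group means were removed, same-numbered arrays of a genotype correlated across probes at 0.34 to 0.64 (6 pairs), other-numbered ones at -0.47 to 0.25, and same-numbered arrays of different genotypes at -0.38 to 0.45. Same-numbered arrays of a genotype also shared a background set, and the part of the set in these correlations was not tested. Pairing by replicate number within a genotype was treated as possible, and a block of that kind was an alternative. Other alternatives varied background correction, offset, normalization, source, filter, probe summary, array weights, background set and left-out arrays.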

Additional observations from a re-analysis of the deposited data

Results flagged for a closer look

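Of the 6 untested collagens detected on 1 or 2 arrays, 2 were detected on DKO arrays alone and 4 on WT arrays alone, outside the comparisons above. Col11a2, a minor fibrillar chain of cartilage, was detected on 2 of 6 DKO arrays, untreated replicate 2 and IFNβ replicate 3, by both of its probes, and on 0 of 6 WT arrays. Col26a1 was detected on 1 of 6 DKO arrays, untreated replicate 3, by 1 of 3 probes, and on 0 of 6 WT arrays. The other 4 were detected on 0 of 6 DKO arrays: Col9a1 on 1 untreated and 1 IFNβ-treated WT array, and Col8a2, Col25a1 and Col27a1 on 1 untreated WT array each. Among the 756 readings of untested collagens 10 were detected (1.32%).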

How the results depend on the processing

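With 3 arrays a group and bright and dim probes in 1 model, changes of dim genes such as Col5a3 and Col7a1 are compressed by background, and precision is limited by the number of arrays. Each difference was recomputed in 26 alternatives. The 6 collagens higher in DKO cells became 5 in untreated cells of the lower background set alone and 5 after IFNβ in the higher set alone, where Col16a1 did not pass; the other 25 alternatives gave 6 for each comparison. The interaction counts were 0 in every alternative. The log2 difference of Col4a1 ran from 3.97 to 4.63 untreated and from 3.73 to 4.41 after IFNβ. The 4 collagens lower in untreated DKO cells became 2 with median scaling, 1 in the lower background set alone, and 1 to 4 when 1 array was left out. The 5 lower in DKO cells after IFNβ became 3 in the lower background set alone and 3 to 6 with 1 array left out. The 2 lower with IFNβ in WT cells became 1 with cyclic loess, 1 without a filter on detection, 1 in the lower background set alone, 0 in the higher set alone and 0 to 2 with 1 array left out. The 1 lower with IFNβ in DKO cells became 0 without background correction, 0 with an offset of 50, 0 with the authors' log2 table, 0 in the lower background set alone and 0 to 1 with 1 array left out. The cause of these changes was not tested, and a background set alone left 1 array in some groups. Of 390 values for single collagens per comparison, 24 lost their call between genotypes untreated and 20 after IFNβ. With IFNβ 12 lost it in WT cells and 8 in DKO cells, and 0 reversed in any comparison. In the same order 3, 5, 2 and 1 values gained a call. Only a collagen that had passed could lose its call. With IFNβ Col7a1 lost it in 8 of 26 alternatives in DKO cells and in 6 of 26 in WT cells. Col18a1 lost it in 6 of 26 in WT cells. Of values that passed neither way, 5, 6, 19 and 5 had the other sign, in the same order, as did 30 of the interaction.

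Blocks on the replicate number were tried. As a random block within genotype (estimated correlation 0.43), 1 collagen, Col3a1, was higher with IFNβ in WT cells (0.32, adjusted p = 0.031) and Col5a3 no longer passed between untreated genotypes (adjusted p = 0.053). As a fixed term, 2 were lower with IFNβ in DKO cells, Col6a2 (-0.36, adjusted p = 0.015) beside Col7a1, and Col6a1 passed between genotypes (adjusted p = 0.024 untreated and 0.011 after IFNβ). The blocks changed no other call of a collagen. In the list counts, added after seeing the data, biosynthesis genes lower with IFNβ numbered 0 to 8 in WT cells and 0 to 5 in DKO cells over the alternatives, and those lower in DKO cells 2 to 8 under both treatments.

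Counts over all tested genes moved too. Between untreated genotypes 1411 genes were higher in DKO cells and 1602 lower, with 900 to 1808 and 720 to 2133 over the alternatives, and after IFNβ 1362 and 1469, with 909 to 1774 and 746 to 1854. With IFNβ 556 were higher and 459 lower in DKO cells, with 268 to 802 and 39 to 1188, and 719 and 949 in WT cells, with 498 to 1005 and 311 to 1848. The interaction gave 27 above and 66 below, with 8 to 111 and 20 to 203. The highest counts with IFNβ and in the interaction came with the random block, and the lowest between genotypes in the lower background set alone.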
